A study of Mus musculus with 4 samples.

Results

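Glycogen is the branched glucose store of the liver, and 9 genes of its synthesis and breakdown are described here in livers of Fto knockout (KO) mice and of wild-type (WT) mice. The genes are Pgm1, Ugp2, Gys2, Gbe1, Pygl, Phka2, Ppp1r3b, Ppp1r3c and Ppp1r3g. They were taken by symbol from the GENCODE M21 annotation, 1 Ensembl identifier for each, out of 37315 identifiers in the count files. All 9 passed the filter on low counts that left 13836 genes to test. Polyadenylated liver RNA of C57BL/6 mice aged 23 weeks was sequenced as paired reads of 101 bases, with 2 KO and 2 WT libraries. Fto encodes an RNA demethylase. The labels call the animals Fto knockout and give neither the allele nor the tissues in which it is deleted. They also give no sex and no feeding state, and do not state whether each library is a different animal; p-values therefore reflect only library-to-library spread, possibly technical.

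In hepatocytes, glucose is phosphorylated and turned into glucose 1-phosphate by phosphoglucomutase (Pgm1), then into UDP-glucose by UDP-glucose pyrophosphorylase (Ugp2). Glycogen synthase, whose liver isoform is encoded by Gys2, adds the glucose units in chains, and the branching enzyme (Gbe1) makes the branch points. Glycogen phosphorylase, whose liver isoform is encoded by Pygl, releases glucose 1-phosphate when glucagon or adrenaline signals through phosphorylase kinase, of which Phka2 encodes the liver regulatory alpha subunit. The Ppp1r3 genes encode subunits that bring protein phosphatase 1 to glycogen, where it activates the synthase and inactivates the phosphorylase. Both enzymes are controlled largely by phosphorylation and by metabolites, which RNA counts do not measure.

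The libraries held 44689114 and 40947808 counts for KO replicates 1 and 2 and 41332870 and 39549592 counts for WT replicates 1 and 2, so that 1 read corresponded to 0.0216 to 0.0263 CPM (counts per 1000000 counts of a library scaled by TMM). The targeted gene Fto fell by 1.57 on the log2 scale (SE 0.195, adjusted p = 0.0109), with 607 and 486 reads in the KO libraries against 1749 and 1292 in the WT libraries. The hepatocyte markers on the fixed list, among them Alb, which encodes albumin, were detected in every library, and their summed level was 89317 and 94892 CPM in KO against 79708 and 87318 CPM in WT.

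Where the promoters of the genes lie and what letters they hold is shown for Ppp1r3c, Phka2 and Pygl, the 3 genes whose difference between genotypes had an unadjusted p under 0.05. Each sequence is from RefSeq on GRCm38.p6 and runs from 250 bases before to 50 bases after a transcript start, 5′ to 3′ on the strand of the gene. Capitals mark matches, on either strand, to 3 motifs: CACGTG, the E-box bound by clock factors; TGACG, the core of the cAMP response element; and TGTTTAC, bound by forkhead factors.
Ppp1r3c, chr19:36736555-36736854, minus strand: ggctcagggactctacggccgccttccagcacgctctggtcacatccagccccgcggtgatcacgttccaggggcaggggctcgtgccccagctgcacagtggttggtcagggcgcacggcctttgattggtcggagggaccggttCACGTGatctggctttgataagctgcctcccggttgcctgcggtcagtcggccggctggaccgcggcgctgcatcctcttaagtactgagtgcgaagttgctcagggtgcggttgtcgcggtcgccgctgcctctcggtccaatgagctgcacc
Phka2, chrX:160501912-160502211, plus strand: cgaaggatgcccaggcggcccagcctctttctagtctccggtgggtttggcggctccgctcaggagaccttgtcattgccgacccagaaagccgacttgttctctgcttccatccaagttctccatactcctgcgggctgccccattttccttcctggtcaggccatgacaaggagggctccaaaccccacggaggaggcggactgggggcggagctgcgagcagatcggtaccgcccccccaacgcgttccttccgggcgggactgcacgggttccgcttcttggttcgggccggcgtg
Pygl, chr12:70227634-70227933, minus strand: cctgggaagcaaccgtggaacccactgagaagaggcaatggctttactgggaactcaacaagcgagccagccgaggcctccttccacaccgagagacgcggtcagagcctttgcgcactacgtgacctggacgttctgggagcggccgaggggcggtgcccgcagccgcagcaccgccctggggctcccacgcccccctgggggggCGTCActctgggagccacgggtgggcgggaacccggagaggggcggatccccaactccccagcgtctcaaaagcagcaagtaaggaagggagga
The Ppp1r3c promoter holds 1 E-box, which starts 104 bases before the transcript start, and the Pygl promoter holds 1 TGACG on the opposite strand, whose letters start 44 bases before it. The Phka2 promoter holds none of the 3 motifs. The matches do not overlap each other. Among the 7 of 9 genes with an entry, Ppp1r3g has 1 TGACG and Pgm1, Ugp2 and Gbe1 have no match; Gys2 and Ppp1r3b have no entry in the table. Of all 32851 promoters of this length, 7.15% hold CACGTG, 20.8% hold TGACG and 3.65% hold TGTTTAC. A match describes the letters and is not evidence that a factor binds.

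Of the 9 genes, the enzyme genes Pygl, Ugp2, Gys2 and Pgm1 were the most abundant and the regulator genes Ppp1r3c, Phka2 and Ppp1r3g the least. The branching enzyme gene Gbe1 and the regulator gene Ppp1r3b lay between them. Per kilobase of the longest annotated transcript, Pygl had the highest level of the 9, with 153 ± 14.7 CPM per kilobase in KO and 209 ± 36.0 in WT (SD, n = 2 each). Ugp2 followed with 129.5 ± 10.7 in KO and 155 ± 32.3 in WT. Gys2 had 97.6 ± 7.85 in KO and 88.1 ± 6.48 in WT, and Pgm1 had 95.2 ± 9.54 in KO and 127 ± 20.1 in WT. These 4 genes were above the 94th percentile of tested protein-coding genes in both genotypes. Gbe1 was at 35.2 ± 3.07 CPM per kilobase in KO and 46.4 ± 10.9 in WT. Among the regulators, Ppp1r3b was at 29.8 ± 9.97 in KO and 38.4 ± 6.49 in WT, and Ppp1r3c at 9.62 ± 1.11 in KO and 19.0 ± 1.78 in WT. Phka2 was at 3.88 ± 0.364 in KO and 6.18 ± 0.642 in WT, and Ppp1r3g at 1.78 ± 0.396 in KO and 3.79 ± 3.14 in WT. Libraries of neighbouring genes overlapped for Gys2 with Pgm1 and for Gbe1 with Ppp1r3b in KO, and for Ugp2 with Pgm1, Gbe1 with Ppp1r3b and Phka2 with Ppp1r3g in WT, so their order there is not beyond the spread. The place of Pygl depends on the length used: over the union of its exons, which is longer, it was at 69.8 CPM per kilobase in KO, below Ugp2, Gys2 and Pgm1, and at 95.4 in WT, below Ugp2 and Pgm1.

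**Figure D1:**
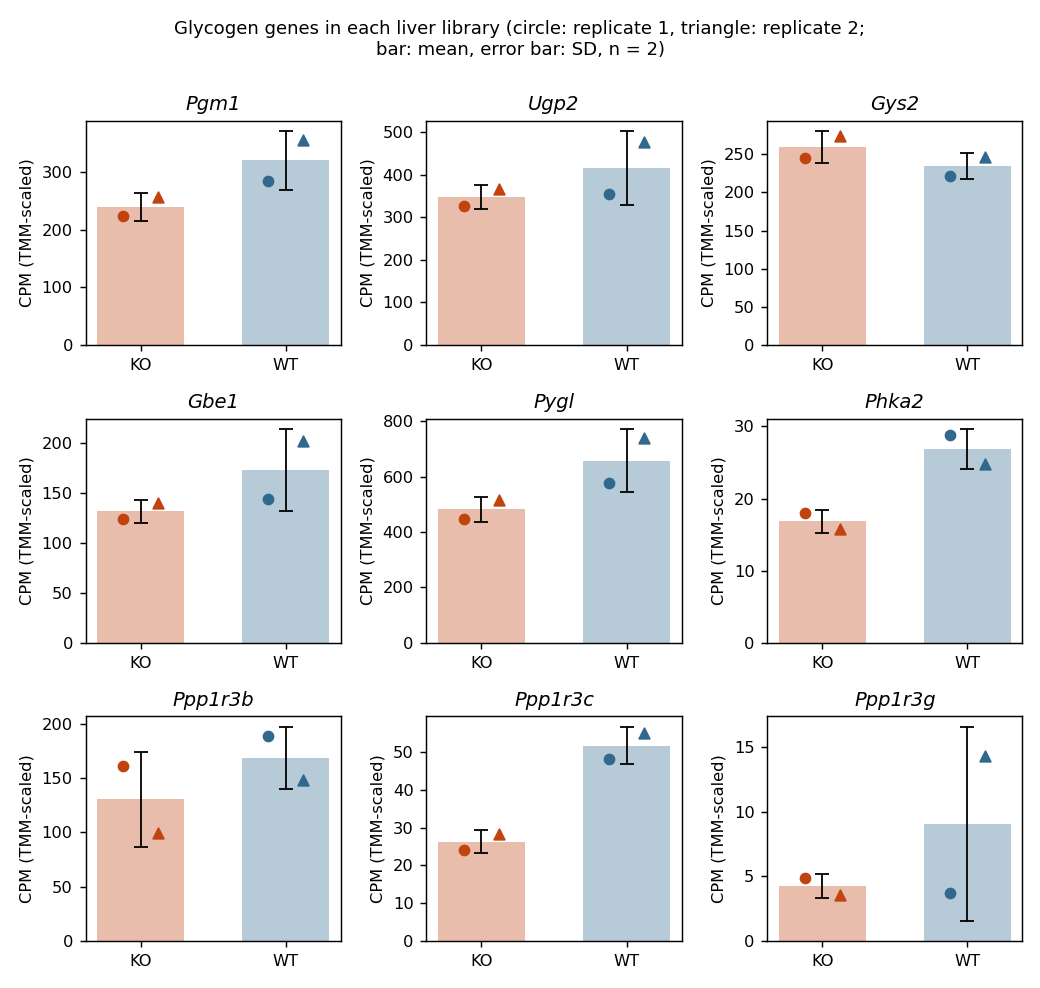
Level of each of the 9 glycogen genes in CPM after TMM scaling, with KO left of WT; circles are replicate 1, triangles replicate 2, bars the mean and error bars the SD of 2 libraries, and each panel has its own axis from 0. Both KO libraries lie below both WT libraries for Pgm1, Gbe1, Pygl, Phka2 and Ppp1r3c, and Ppp1r3g is high in WT replicate 2 alone.

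Between genotypes, the fitted KO level ran from 47.0% of WT for Ppp1r3g and 50.7% for Ppp1r3c to 111% for Gys2, and none of the 9 glycogen genes passed the test over all genes. Of the 9 genes, 8 had a negative log2 fold change (KO over WT), as did 49.2% of all tested genes, and Gys2 had a positive one. The median over the 9 was -0.42, against 0.0058 over all tested genes. With edgeR's quasi-likelihood test and Benjamini-Hochberg adjustment, 0 of 9 were called at an adjusted p under 0.05, against 1.91% of all tested genes (264 of 13836). At an unadjusted p under 0.05 there were 3 of 9, against 13.0% of all tested genes. By other tools, DESeq2 called 1 of 9, against 4.15% of all tested genes (574), and limma-voom 1 of 9, against 1.86% (258), which was Ppp1r3c with both. Both KO libraries lay below both WT libraries for 5 of 9, against 20.4% of all tested genes, and for none of the 9 did both lie above, against 21.6%. The 9 genes together took 0.163% and 0.166% of the counts of the KO libraries and 0.190% and 0.218% of those of the WT libraries. The signs were the same under every alternative setting run, except that of Ppp1r3g.

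**Figure D2:**
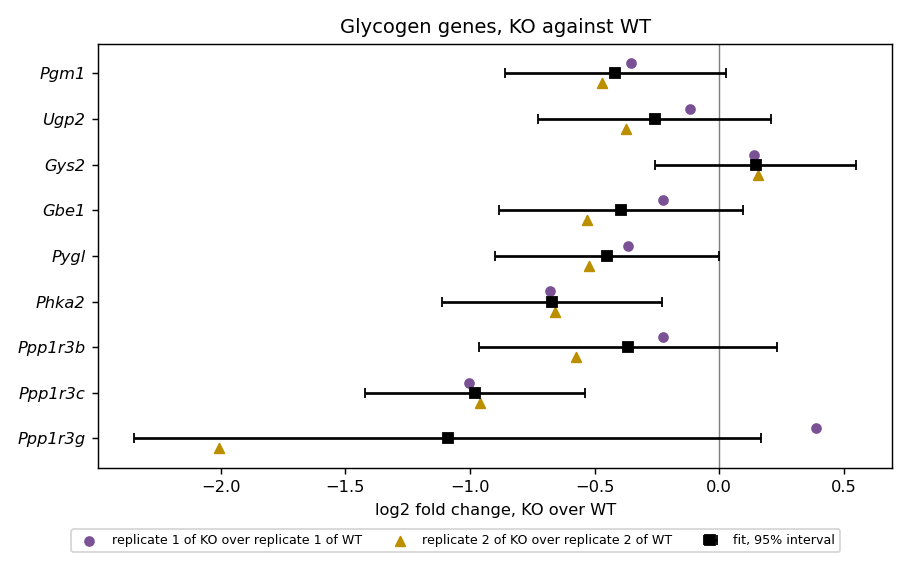
Log2 fold change of KO over WT for each gene; squares with bars are the edgeR fit with its 95% interval, circles set replicate 1 of KO over replicate 1 of WT and triangles replicate 2 over replicate 2. The intervals of Ppp1r3c, Phka2 and Pygl exclude 0 before adjustment, and the 2 ratios of Ppp1r3g have opposite signs.

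The 2 enzymes that supply UDP-glucose were lower on average in KO without passing the test. Pgm1, which interconverts glucose 6-phosphate and glucose 1-phosphate, had 223 and 257 CPM in KO replicates 1 and 2 and 285 and 356 CPM in WT replicates 1 and 2. The genotypes did not overlap, with a log2 fold change of -0.42 (95% interval -0.86 to 0.03, adjusted p = 0.419). The paralog Pgm2, a phosphopentomutase, was low, with 3.05 and 3.92 CPM in KO and 2.48 and 3.26 CPM in WT, so that Pgm1 held 98.5% ± 0.116 of the summed per-kilobase level in KO and 99.1% ± 0.0331 in WT (SD, n = 2 each). Ugp2, which makes UDP-glucose, had 327 and 368 CPM in KO and 354 and 477 CPM in WT. Its groups overlapped, and its log2 fold change was -0.26 (95% interval -0.73 to 0.21, adjusted p = 0.682). Pgm1 shares 398 exon bases with Itgb3bp on the other strand, which had 34 to 52 reads per library, and reads of the shared bases cannot be given to either gene in libraries that do not mark strand. Ugp2 shares 78 exon bases with Gm12043, which had at most 3 reads in a library, and Phka2 shares 115 with Gm15243, which had 0.

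The synthase gene was the only one of the 9 with a positive fitted difference, which did not pass the test. Gys2 (chromosome 6, 142422613 to 142473109, minus strand, mm10) had 245 and 274 CPM in KO and 222 and 246 CPM in WT. The groups overlapped, since KO replicate 1 was below WT replicate 2, and the log2 fold change was 0.15 (SE 0.174, 95% interval -0.26 to 0.55, adjusted p = 0.813). Gys1, the synthase of muscle and most other tissues, had 2.88 and 2.15 CPM in KO and 1.72 and 1.39 CPM in WT (log2 fold change 0.69, adjusted p = 0.398), and Gys2 made up 99.3% ± 0.198 of the summed per-kilobase level of both synthases in KO and 99.5% ± 0.106 in WT (SD, n = 2 each). Gbe1, the branching enzyme (chromosome 16, 70313949 to 70569716, plus strand), had 123 and 139.7 CPM in KO and 144 and 202 CPM in WT. Its libraries did not overlap between genotypes, but KO replicate 2 and WT replicate 1 were close, and the log2 fold change of -0.40 did not pass (95% interval -0.89 to 0.09, adjusted p = 0.507). Gyg, which encodes glycogenin, the protein primer of glycogen, had 2.70 and 2.30 CPM in KO and 3.35 and 4.44 CPM in WT (log2 fold change -0.64, adjusted p = 0.383).

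Among the genes of breakdown, the phosphorylase and the alpha subunit of its kinase were both lower in the 2 KO libraries than in either WT library. Pygl (chromosome 12, 70190811 to 70231488, minus strand) had 448 and 514 CPM in KO and 577 and 738 CPM in WT, which put KO at 73.2% of WT. Its log2 fold change of -0.45 (SE 0.193, 95% interval -0.90 to -0.0019, unadjusted p = 0.0493) did not pass after adjustment (adjusted p = 0.382). The brain and muscle phosphorylases were minor. Pygb had 3.16 and 2.35 CPM in KO and 2.43 and 2.29 CPM in WT, and Pygm 0.497 and 0.625 CPM in KO and 0.802 and 0.867 CPM in WT. Pygl made up 99.4% ± 0.131 of the 3 per kilobase in KO and 99.6% ± 0.0790 in WT (SD, n = 2 each).

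Phka2 (chromosome X, 160502166 to 160598878, plus strand) had 18.0 and 15.7 CPM in KO and 28.8 and 24.9 CPM in WT. Both KO libraries were below both WT libraries, with KO at 62.9% of WT, and the log2 fold change was -0.67 (SE 0.190, 95% interval -1.11 to -0.23; unadjusted p = 0.00836, adjusted p = 0.163). The ratios within the replicate numbers were close to each other, -0.68 for replicate 1 and -0.66 for replicate 2. The fitted differences of the other subunits were smaller. Phka1, the muscle alpha subunit, had 4.67 and 4.77 CPM in KO and 6.30 and 6.15 CPM in WT (log2 fold change -0.40, adjusted p = 0.515). The beta subunit gene Phkb had a log2 fold change of 0.06 (SE 0.187) and the liver catalytic subunit gene Phkg2 one of -0.01 (SE 0.187). Phkg1, the muscle catalytic subunit, had at most 0.433 CPM in a library. Per kilobase, Phka2 was at 3.88 ± 0.364 CPM in KO beside 5.70 ± 0.584 for Phkb and 5.55 ± 0.298 for Phkg2, and at 6.18 ± 0.642 in WT beside 5.47 ± 0.477 for Phkb and 5.59 ± 0.0878 for Phkg2 (SD, n = 2 each). Both KO libraries of Phka2 lay below those of both partners, and in WT Phka2 overlapped with Phkb and lay just above Phkg2. This order rests on the longest transcript of each gene. Over the union of its exons Phka2 was at 2.78 CPM per kilobase in KO and 4.42 in WT, and the partners were not set on that length. Whether Phka2 differs between genotypes from its partners was not tested.

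Set within each library, the synthase stood higher relative to the phosphorylase in KO. Per kilobase of the longest transcript, the Gys2 level was 0.647 and 0.632 times that of Pygl in KO replicates 1 and 2. In WT replicates 1 and 2 it was 0.456 and 0.396 times. The size of the ratio depends on the length used, but the fold between genotypes does not. Over the union of exons, Gys2 was at 97.6 CPM per kilobase beside 69.8 for Pygl in KO, and at 88.1 beside 95.4 in WT. The means were 0.639 ± 0.0102 in KO and 0.426 ± 0.0423 in WT (SD, n = 2 each). By geometric means, Gys2 over Pygl was 1.505-fold higher in KO. The Gys2 level over that of Gbe1 was 2.78 and 2.76 in KO and 2.16 and 1.71 in WT, 1.44-fold higher in KO by geometric means. Neither ratio overlapped between genotypes, which gives a two-sided exact permutation p of 0.333, the smallest that 2 libraries against 2 allow. These ratios of transcript levels say nothing of the activity of the enzymes, and they were set up with the values of the genes known.

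**Figure D3:**
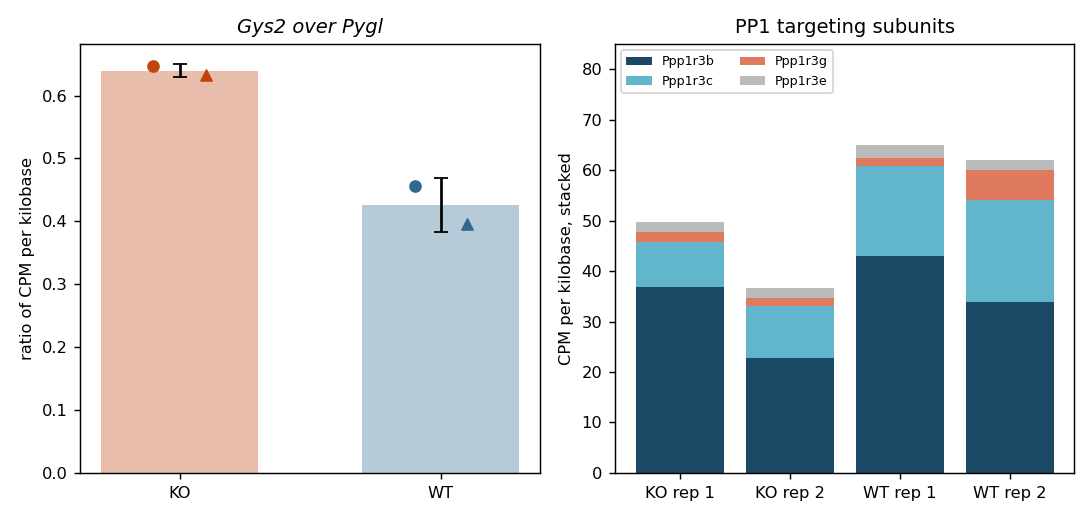
Left, the level of Gys2 divided by that of Pygl, both in CPM per kilobase of the longest annotated transcript, with KO left of WT. Circles are replicate 1, triangles replicate 2, bars the mean and error bars the SD of 2 libraries. Right, the levels per kilobase of 4 subunits that target protein phosphatase 1 to glycogen, stacked for each library; both KO stacks are lower than both WT stacks, and the Ppp1r3c layer is thinner in both KO libraries.

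The subunits that carry protein phosphatase 1 to glycogen held both the difference nearest to the threshold and the least stable one. Ppp1r3c, which encodes protein targeting to glycogen (PTG), lies on chromosome 19 (36731731 to 36736653, minus strand). It had 1113 and 1135 reads, or 24.1 and 28.4 CPM, in KO replicates 1 and 2, and 2048 and 2100 reads, or 48.3 and 55.2 CPM, in WT replicates 1 and 2. The 2 KO libraries were far below the 2 WT libraries relative to the spread within a genotype, and the mean was 26.2 ± 3.03 CPM in KO and 51.7 ± 4.86 CPM in WT (SD, n = 2 each). The log2 fold change was -0.98 (SE 0.190, 95% interval -1.42 to -0.54) with an unadjusted p of 0.000975, and the adjusted p of 0.0506 was just above the threshold. It passed under 10 of the 12 alternative settings, which share the same libraries, and not with library size alone (adjusted p = 0.0656) or without KO replicate 1 (0.139), over a range of adjusted p from 1.14e-15 to 0.139. Of the 10, 3 are fits without 1 library, in which the genotype left with 1 library is assumed to vary like the other. The log2 fold change of Ppp1r3c stayed between -1.11 and -0.86 in all of them. The ratios within the replicate numbers were -1.004 and -0.96.

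Ppp1r3b, which encodes the hepatic targeting subunit GL and was the most abundant subunit gene of the family, had 162 and 99.7 CPM in KO and 189 and 148 CPM in WT. The groups overlapped (log2 fold change -0.37, 95% interval -0.97 to 0.23, adjusted p = 0.638), and replicate 2 was the lower library in both genotypes. Ppp1r3g, another subunit gene of the family, was low. It had 227 and 143 reads in KO and 159 and 547 in WT. In CPM it had 4.91 and 3.57 in KO and 3.75 and 14.4 in WT. Its log2 fold change of -1.09 (SE 0.542, adjusted p = 0.464) rests on WT replicate 2. Without that library it was 0.17 (adjusted p = 0.979), and without WT replicate 1 it was -1.76 with an adjusted p of 1.1e-06, a fit in which WT is a single library assumed to vary like the KO pair. Of the rest of the family, Ppp1r3e had 3.79 and 4.02 CPM in KO and 5.33 and 3.89 CPM in WT, and Ppp1r3f had at most 0.707 CPM in a library. Ppp1r3a, the muscle subunit, and Ppp1r3d were too low to test, with at most 4 and 6 reads in a library. Summed per kilobase over the 7 Ppp1r3 genes, the level was 49.8 and 36.9 CPM in KO and 65.2 and 62.2 CPM in WT, of which Ppp1r3b gave 73.9% and 61.7% in KO and 66.0% and 54.4% in WT, and Ppp1r3c gave 17.7% and 28.2% in KO and 27.2% and 32.5% in WT. The catalytic subunit genes Ppp1ca, Ppp1cb and Ppp1cc had log2 fold changes of -0.11, -0.12 and -0.04.

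The other genes of the pathway were taken from 5 lists of 44 genes in all, of which 42 could be tested and 0 were called with edgeR, against 1.91% of all tested genes. At an unadjusted p under 0.05 there were 7 of 42, near the 13.0% of all tested genes. DESeq2 called 1, Epm2a, against 4.15% of all tested genes, and limma-voom called 0, against 1.86%. Of 11 further enzymes and glycogen-binding proteins 7 had a positive log2 fold change and 4 a negative one (median 0.15). Epm2a, which encodes laforin, a phosphatase of glycogen itself, was the nearest to the threshold, with 4.11 and 3.82 CPM in KO and 7.76 and 7.25 CPM in WT (log2 fold change -0.92, SE 0.218, adjusted p = 0.0931). DESeq2 gave Epm2a an adjusted p of 0.0395. Stbd1, a protein that tethers glycogen to membranes, had 145 and 166 CPM in KO and 114 and 136 CPM in WT (log2 fold change 0.32, adjusted p = 0.550). Of 7 phosphorylase kinase and calmodulin genes 2 were positive and 5 negative (median -0.06), and of 5 tested genes of protein phosphatase 1 only Ppp1r3f was positive (median -0.11).

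Of 13 genes of hormone receptors and kinases 6 were positive and 7 negative (median -0.0026). The glucagon receptor gene Gcgr had a log2 fold change of -0.13 (SE 0.182). Prkaca, a catalytic subunit of the cAMP-dependent kinase that activates phosphorylase kinase, had 44.9 and 38.0 CPM in KO and 63.0 and 56.1 CPM in WT (-0.52, adjusted p = 0.279), and the adrenergic receptor gene Adra1b had 58.9 and 47.0 CPM in KO and 69.3 and 74.9 CPM in WT (-0.44, adjusted p = 0.384). All 6 genes of glucose entry and exit were negative (median -0.40), against 49.2% of all tested genes, and for 4 of them both KO libraries lay below both WT libraries, against 20.4% of all tested genes. None of the 6 was called. They included Gckr (-0.65, unadjusted p = 0.00715, adjusted p = 0.149), the glucose transporter gene Slc2a2 (-0.48, adjusted p = 0.285) and the glucose 6-phosphatase gene G6pc (-0.57, adjusted p = 0.249). Epm2a, Stbd1, Gckr, Prkaca, Adra1b, Gcgr and the 3 catalytic subunit genes were picked from the lists after their values were seen.

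**Figure D4:**
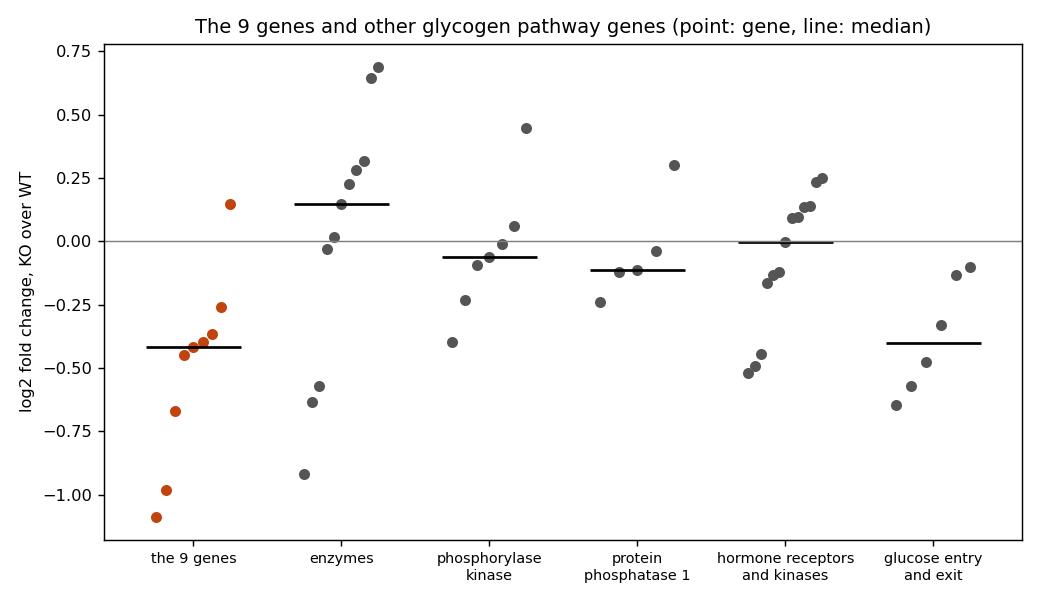
Log2 fold change of KO over WT for the 9 glycogen genes and for the tested genes of 5 further lists; each point is a gene and each line the median of its list. The median of the 9 genes is -0.42 and that of the genes of glucose entry and exit -0.40, while the other 4 medians lie between -0.11 and 0.15, and no gene shown passed edgeR's test.

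Since none of the 9 was called, the genes most like Ppp1r3c, which had the smallest p, were sought by the root mean square difference of log2 CPM centred on each gene's mean over the 4 libraries. The 3 nearest of all tested genes were Pmm1, a phosphomannomutase, at 0.030, Gpt2, the mitochondrial alanine aminotransferase, at 0.034, and Paqr7, a membrane progestin receptor, at 0.043. Gpt2 had 293 and 344 CPM in KO and 619 and 670 CPM in WT (log2 fold change -1.02, adjusted p = 0.0347; 0.0815 without KO replicate 1). Pmm1 and Paqr7 had log2 fold changes of -0.96 and -0.92 and did not pass with edgeR (adjusted p = 0.0857 and 0.0564), but both did with DESeq2 (0.0212 and 0.00232). These genes were chosen by their likeness over the same 4 libraries, so fold changes near that of Ppp1r3c follow from the choice. With 4 libraries this likeness is a description only and does not bear on the test of Ppp1r3c.

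Most of the 9 genes also differed between the replicate numbers. Pgm1, Ugp2, Gys2, Gbe1, Pygl and Ppp1r3c were higher in replicate 2 than in replicate 1 in both genotypes, by 0.16 to 0.24 in KO and by 0.15 to 0.48 in WT on the log2 scale, while Phka2 and Ppp1r3b were lower in replicate 2. Their log2 ratios of replicate 2 over replicate 1 were -0.19 and -0.70 in KO and -0.21 and -0.35 in WT. For Ppp1r3g that ratio was -0.46 in KO and 1.94 in WT. Across protein-coding genes the median shift from replicate 1 to 2 followed transcript length. It was 0.10 in KO and 0.14 in WT for transcripts of 2000 to 3000 bases. For those of 4000 to 8000 bases, the class that holds Phka2 and Ppp1r3b, it was -0.15 in KO and -0.17 in WT. For those of 3000 to 4000 bases, the class that holds Pygl and Gbe1, it was only 0.0047 in KO and 0.021 in WT. Pygl itself shifted by 0.20 in KO and 0.35 in WT, and Gbe1 by 0.18 in KO and 0.48 in WT. The median log2 fold change of KO over WT also rose with transcript length, from -0.10 for up to 1000 bases to 0.11 for over 8000. It was -0.017 for 2000 to 3000 bases, 0.014 for 3000 to 4000 and 0.051 for 4000 to 8000. The part of length in the values of the 9 genes was examined only by the length correction. That correction used the union of exons, not the longest transcript, so Pygl entered with 6895 bases, Gbe1 with 5352 and Phka2 with 6068. Under it the log2 fold changes of Phka2 and Ppp1r3c were -0.70 and -0.95, and those of Pygl and Gbe1 -0.49 and -0.42.

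Markers of other cells differed between the libraries too. Fewer cells of a type and less RNA per cell cannot be told apart in bulk tissue. All 12 Kupffer cell markers had a positive log2 fold change (median 0.88), against 50.8% of all tested genes, and 2 of 12 were called, against 1.91%, with a summed level of 363 and 390 CPM in KO and 168 and 253 CPM in WT. The 5 tested erythroid markers were all negative, against 49.2% of all tested genes, and 0 were called, against 1.91%. The erythroid list summed to 186 and 206 CPM in KO and 270.03 and 305 CPM in WT. Most of that sum was Alas2, with 122 and 135 CPM in KO and 157 and 184 CPM in WT. The adipocyte list summed to 9.13 and 31.6 CPM in KO and 35.1 and 84.7 CPM in WT. The lipid droplet gene Cidec, one of that list, had 268 and 539 reads in KO and 1153 and 2220 in WT and was not called (adjusted p = 0.0711). The defining fat cell genes were instead high in replicate 2 of both genotypes, Adipoq with 0 and 71 reads in KO and 1 and 70 in WT, and Lep with 0 and 36 in KO and 0 and 41 in WT. The part of these markers in the values of the glycogen genes was not tested. Skeletal muscle, the other large store of glycogen, was near 0: its 7 markers, Ckm, Acta1 and Myh4 among them, summed to 0.8003 and 1.27 CPM in KO and 0.896 and 0.762 CPM in WT. Endothelial, stellate, cholangiocyte and lymphoid lists had 0 called genes each, with medians between -0.31 and 0.079. Of the lymphoid list only 4 of 6 genes could be tested. Of the 5 pancreatic acinar genes only Cela1 could be tested, with a log2 fold change of 0.45, and it was not called.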

How the data were processed

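RNA-seq of liver from 2 KO and 2 WT libraries was used, grouped by the sample titles. The deposited files hold whole-number counts of reads per Ensembl gene, not normalised; the submitters' processing notes name TopHat2 2.1.1, HTSeq 0.6.0 and the build mm10, while the annotation release and the counting mode were not stated. Per the labels' protocols, library preparation used the TruSeq v2 kit, which does not mark strand. GENCODE M21 gave a symbol for 35533 of 37315 identifiers, and every row named a gene. Libraries of 1 genotype differed by more than sampling noise (chi-square per degree of freedom of at least 86.5).

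All genes were fitted together with edgeR 4.0.16 in R 4.3.3: filterByExpr (minimum count 10, minimum total 15), TMM, and a robust quasi-likelihood F test, two-sided, in a model of genotype alone. Benjamini-Hochberg adjustment ran over 13836 genes, with a threshold of 0.05. The SE was obtained from the log2 fold change and its F statistic, and 95% intervals use the degrees of freedom of the fit (7.68 for these genes). Levels are TMM-scaled CPM, divided by the longest annotated transcript where given per kilobase. The procedure was tested on simulated counts. Alternatives were RLE factors, library size alone, no filter, DESeq2 1.42.0, limma-voom 3.58.1, a replicate term, a length correction, both together, and each library left out. The length correction used the union of exons of each gene. The members and lists were chosen with earlier results of these data known. Named genes were the 9 members, Fto, listed partners of the members' reactions (some are not reported here) and the 3 genes most like the member of smallest p.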

Additional observations from a re-analysis of the deposited data

How the results depend on the processing

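The number of the 9 glycogen genes called was 0 as reported and with library size alone, and 1, Ppp1r3c, with RLE factors (adjusted p = 0.0481), no filter, DESeq2, limma-voom (0.0476) or the length correction. Genes called in all were 264 as reported (1.91% of 13836), 282 with RLE factors (2.04%) and 176 with library size alone (1.27%). They were 574 with DESeq2 (4.15%), 258 with limma-voom (1.86%) and 437 with the length correction (3.16%). With no filter they were 829 of 22419 genes (3.7%). In fits without 1 library, the genotype left with 1 library is assumed to vary like the other. These fits tested 14253 to 14454 genes and called 460 (3.23%) to 633 (4.42%), and 0 to 2 of the 9. Ppp1r3g was the second, without WT replicate 1, and the call of Ppp1r3c was absent without KO replicate 1. Of the other pathway genes, 1 was called with no filter and 1 with DESeq2, Epm2a in both.

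A replicate block gave 2729 genes, 6 of the 9 and 8 other pathway genes, and with the length correction 3142, 7 and 10. The 6 were Pgm1, Gbe1, Pygl, Phka2, Ppp1r3b and Ppp1r3c, and Ugp2 was added by the length correction. That block called 19.7% of all tested genes, and 22.7% with the length correction. Differences between replicates 1 and 2 correlated between genotypes (r = 0.43 across 13836 genes), but nothing in the labels ties the numbers to shared animals or days.

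Some log2 fold changes changed sign, with neither value called except that of Ppp1r3g without WT replicate 1. Leaving out 1 library at a time gave -1.76 (without WT replicate 1) to 0.17 (without WT replicate 2) for Ppp1r3g, -0.056 to 0.16 for Phkb, -0.064 to 0.035 for Phkg2, -0.35 to 0.93 for Phkg1, -0.0031 to 0.41 for Pygb, -0.46 to 0.0050 for Ppp1r3e, -0.13 to 0.92 for Ppp1r3f, -0.28 to 0.070 for Ppp1ca, -0.18 to 0.091 for Ppp1cc and -0.27 to 0.016 for Gcgr. With library size alone Phkg2 was 0.0081. The causes were not tested.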
